A study of Homo sapiens with 6 samples.

Results

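The proteins of the mitochondrial ribosome are encoded by nuclear genes named MRPL and MRPS, and these genes were followed here in human cardiomyocyte cells held at low temperature. The rule for members used gene names, and it was set with earlier results of these data known. Every array feature whose only gene symbol was MRPL or MRPS followed by a number, with or without a final A, B or C, was taken, and a gene with several such features was given by the one with the highest mean signal. The rule found 81 of 70523 features, which stood for 74 of the 22411 genes that have a feature of their own. MRPL30, MRPS16 and MRPS6 shared their features with other symbols and were not analysed here.

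Gene expression was measured in AC16, a cell line made by fusing cells of the adult human ventricle with fibroblasts. The hypothermia group was kept at 28 °C for 6 h and the control group at 37 °C for 6 h, both in DMEM/F-12 with serum under CO2, and neither group carried another treatment. Each group had 3 arrays of total RNA, numbered as replicates 1 to 3. The sources do not say whether these came from separate cultures, so p-values measure the spread between these arrays, which may be technical, and 3 arrays a group limit the precision of every value.

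Mitochondria carry a ribosome of their own, which makes the few proteins encoded by mitochondrial DNA, all of them parts of the respiratory chain and of ATP synthase. Its RNA comes from mitochondrial DNA, while all of its proteins are made in the cytosol and imported. Some of these proteins have a counterpart in the bacterial ribosome, and others have places that exist only in the mitochondrial ribosome. Heart muscle, which lives on oxidative metabolism, is among the tissues hit by inherited defects of mitochondrial translation.

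The large subunit holds the catalytic centre and the exit tunnel, and the small subunit reads the mRNA. By their place in the ribosome, 50 members belonged to the large subunit and 24 to the small subunit. MRPS30 and MRPS18A carry a small subunit symbol but lie in the large subunit and were counted there, which makes 2 such genes. By their current protein names, 43 members had a bacterial counterpart and 31 were specific to mitochondria.

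The promoters of these genes are shown first, because the family is known for a shared set of short promoter motifs. RefSeq sequence of build GRCh38.p14, 300 bases that reach from upstream of each gene start to shortly after it, was matched for 66 of the 74 genes, with 82 promoters in all. The genes below are those with a match among the members with the lowest p-values in the comparison that follows. All are written 5′ to 3′ on the strand of the gene, and capitals mark the motif match. MRPL33, at chr2:27771469-27771768 on the + strand, held CCGGAAG, the core bound by ETS family factors such as GABPA, at position -8 from the start. MRPL17, at chr11:6683291-6683590 on the − strand, held the palindromic motif of NRF1 at position -81. MRPS14, at chr1:175023376-175023675 on the − strand, held AANATGGCG, bound by YY1, at position 14. MRPL50, at chr9:101398569-101398868 on the − strand, held the same YY1 motif at position 23.
MRPL33: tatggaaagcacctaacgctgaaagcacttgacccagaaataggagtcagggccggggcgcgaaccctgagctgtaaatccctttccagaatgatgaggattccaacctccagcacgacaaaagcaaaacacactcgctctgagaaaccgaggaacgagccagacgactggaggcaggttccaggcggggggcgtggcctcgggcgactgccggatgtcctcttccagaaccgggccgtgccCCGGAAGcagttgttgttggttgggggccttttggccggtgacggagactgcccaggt
MRPL17: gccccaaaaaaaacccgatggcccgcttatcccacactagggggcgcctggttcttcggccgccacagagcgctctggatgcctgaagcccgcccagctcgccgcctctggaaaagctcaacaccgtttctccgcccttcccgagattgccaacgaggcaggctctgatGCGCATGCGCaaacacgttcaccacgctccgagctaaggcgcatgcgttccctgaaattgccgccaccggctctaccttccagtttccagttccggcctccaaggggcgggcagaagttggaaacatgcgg
MRPS14: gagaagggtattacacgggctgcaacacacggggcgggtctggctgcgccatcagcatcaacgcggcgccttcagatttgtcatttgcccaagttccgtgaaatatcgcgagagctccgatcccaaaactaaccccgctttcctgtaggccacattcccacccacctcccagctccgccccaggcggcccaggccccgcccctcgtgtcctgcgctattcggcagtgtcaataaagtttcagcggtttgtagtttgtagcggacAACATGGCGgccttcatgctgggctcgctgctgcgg
MRPL50: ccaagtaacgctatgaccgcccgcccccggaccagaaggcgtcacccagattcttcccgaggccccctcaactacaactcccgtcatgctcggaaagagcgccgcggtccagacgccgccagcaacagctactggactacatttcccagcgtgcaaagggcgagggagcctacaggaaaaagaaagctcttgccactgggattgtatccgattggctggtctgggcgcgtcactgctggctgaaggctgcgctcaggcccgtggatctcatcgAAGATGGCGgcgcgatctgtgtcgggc
MRPS25, at chr3:15065266-15065565 on the − strand, had none of these 3 motifs in this window.

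All promoters of the family were searched for the same motifs on both strands. CCGGAAG was in 37.8% of the 82 member promoters, in 10.3% of the 35116 promoters of all genes and in 12.8% of those of protein-coding genes. AANATGGCG was in 22% of member promoters, 3.19% of all promoters and 4.24% of protein-coding ones. The NRF1 motif was in 11% of member promoters, 5.78% of all promoters and 7.39% of protein-coding ones. At least 1 of the 3 was in 62.2% of member promoters, against 17.1% of all promoters and 21.6% of the 22199 promoters of protein-coding genes. In 0 of the 82 member promoters did matches of different motifs overlap. A match is a description of the letters and not a measured binding site.

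No mitochondrial ribosomal protein gene passed the test between 28 °C and 37 °C. Of the 74 genes, 0 had an adjusted p under 0.05 in limma, with p-values adjusted by the Benjamini-Hochberg method over all 70523 features. Among all features 0.818% passed, 0.227% higher and 0.591% lower at 28 °C. Among the 14576 genes in the members' range of mean signal 1.78% passed, 0.631% higher and 1.15% lower. Without adjustment, 1 member was higher and 8 were lower at a p under 0.05. The same level was reached by 5.41% of all features in the higher direction and 6.08% in the lower, and by 6.87% and 13.1% of genes in the same signal range. The methods' t-test and the random variance model also called 0 members after adjustment, and at an unadjusted p under 0.05 they counted 12 and 9 members, beside 10.2% and 11.5% of all features. A lower amount of an RNA can come from fewer cells that make it or from less RNA per cell, and these cannot be told apart in bulk RNA.

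The differences were small for every member. A difference is given as log2 signal at 28 °C minus log2 signal at 37 °C, so that 1 is a doubling. The median over the 74 members was -0.04, with quartiles of -0.13 and 0.03 and a range of -0.32 to 0.22. The difference was negative in 50 members and positive in 24, a negative share of 67.6% against 40.4% for all features, whose median was 0.03. Genes in the same signal range had a median of 0.03 and were negative in 43.6%. The median moved with the scaling. It was -0.02 after quantile scaling, with 43 members negative, and -0.08 after centring the arrays on their medians, with 58 negative.

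The 95% intervals of the main limma fit give the precision of each difference from the spread between these arrays. They may not cover the spread between cultures and do not cover the choice of scaling, so they do not exclude larger changes. All 74 intervals lay inside a 1.5-fold change in either direction, 62 lay inside 1.3-fold and 38 inside 1.2-fold. The lowest bound was -0.55, for MRPL35, and the highest was 0.40, for MRPS2. The intervals are those of single genes and do not allow for the number of genes looked at.

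**Figure D1:**
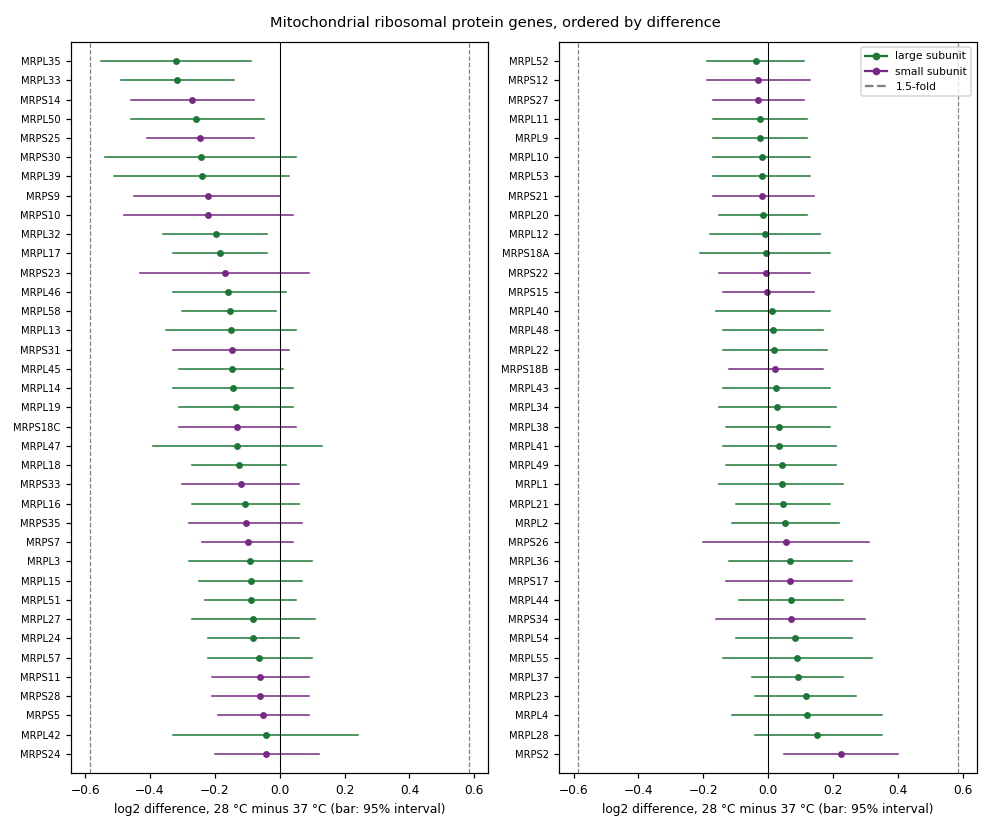
Difference in log2 signal, 28 °C minus 37 °C, for each of the 74 genes, with its 95% interval as a bar, in order of the difference and coloured by subunit. All bars lie between the dashed lines at 1.5-fold, and most of them cross 0.

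In 18 members all 3 arrays at 28 °C lay below all 3 at 37 °C, in 3 they lay above, and in the other 53 the groups overlapped. Among all features the groups were apart in 8.49% lower and 9.38% higher, and among genes of the same signal range in 18.8% lower and 13.2% higher. The 18 of 74 is a larger share than either background in the lower direction and the 3 of 74 a smaller one in the higher direction, and no test was made of the list.

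The large subunit held the members furthest below 0. MRPL33, the counterpart of a small bacterial protein, had the lowest p of the family. Its log2 signal was 4.95, 4.95 and 5.00 at 28 °C, against 5.26, 5.41 and 5.18 at 37 °C. Every array at 28 °C was below every array at 37 °C, and the difference of -0.32 (SE 0.075, 95% interval -0.49 to -0.14) had an adjusted p of 0.139 in limma.

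MRPL35, also with a bacterial counterpart, had 5.70, 5.69 and 5.74 at 28 °C, against 5.93, 6.25 and 5.90 at 37 °C. The groups did not overlap, but much of the difference of -0.32 came from replicate 2 at 37 °C, and without it the difference was -0.21. The adjusted p was 0.258 with all arrays and 0.357 without that one.

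MRPL50, found only in mitochondria, had 4.15, 4.06 and 4.17 at 28 °C, against 4.25, 4.55 and 4.36 at 37 °C. MRPL17 had 6.14, 6.16 and 6.13 at 28 °C, against 6.40, 6.28 and 6.30 at 37 °C. In both genes the groups were apart. The differences were -0.26 (adjusted p = 0.314) and -0.18 (adjusted p = 0.313).

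MRPL32 is cut to its mature form by the m-AAA protease before it joins the large subunit. It had 6.14, 6.01 and 6.03 at 28 °C, against 6.19, 6.31 and 6.28 at 37 °C, a difference of -0.20 (adjusted p = 0.327). MRPL58, known also as ICT1, is a peptidyl-tRNA hydrolase that frees stalled ribosomes. It had 8.75, 8.77 and 8.84 at 28 °C, against 8.92, 8.99 and 8.91 at 37 °C. The arrays of MRPL58 were apart by a narrow gap, and the difference was -0.15 (adjusted p = 0.411).

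Large subunit members with a higher mean at 28 °C were closer to 0. MRPL28 had 7.64, 7.64 and 7.68 at 28 °C, against 7.53, 7.34 and 7.64 at 37 °C. The groups of MRPL28 touched at 2 decimals, and the difference of 0.15 (adjusted p = 0.544) was 0.07 without replicate 2 at 37 °C and 0.03 with the brighter background features as a covariate. MRPL37, specific to mitochondria, had 8.54, 8.55 and 8.60 at 28 °C, against 8.51, 8.44 and 8.47 at 37 °C. It was the other large subunit gene with all arrays at 28 °C above those at 37 °C, by 0.09 (adjusted p = 0.607).

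MRPL23 and MRPL4 are counterparts of bacterial proteins that line the exit tunnel. MRPL23 had 5.67, 5.73 and 5.78 at 28 °C, against 5.63, 5.53 and 5.67 at 37 °C. MRPL4 had 7.38, 7.47 and 7.56 at 28 °C, against 7.47, 7.15 and 7.43 at 37 °C. Both differed by 0.12 (adjusted p = 0.562 and 0.682), and without replicate 2 at 37 °C the differences were 0.08 for MRPL23 and 0.02 for MRPL4. MRPL54 (0.08, adjusted p = 0.724) and MRPL55 (0.09, adjusted p = 0.772) overlapped between the groups, and without that same array MRPL54 came to 0.04 and MRPL55 to -0.01.

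**Figure D2:**
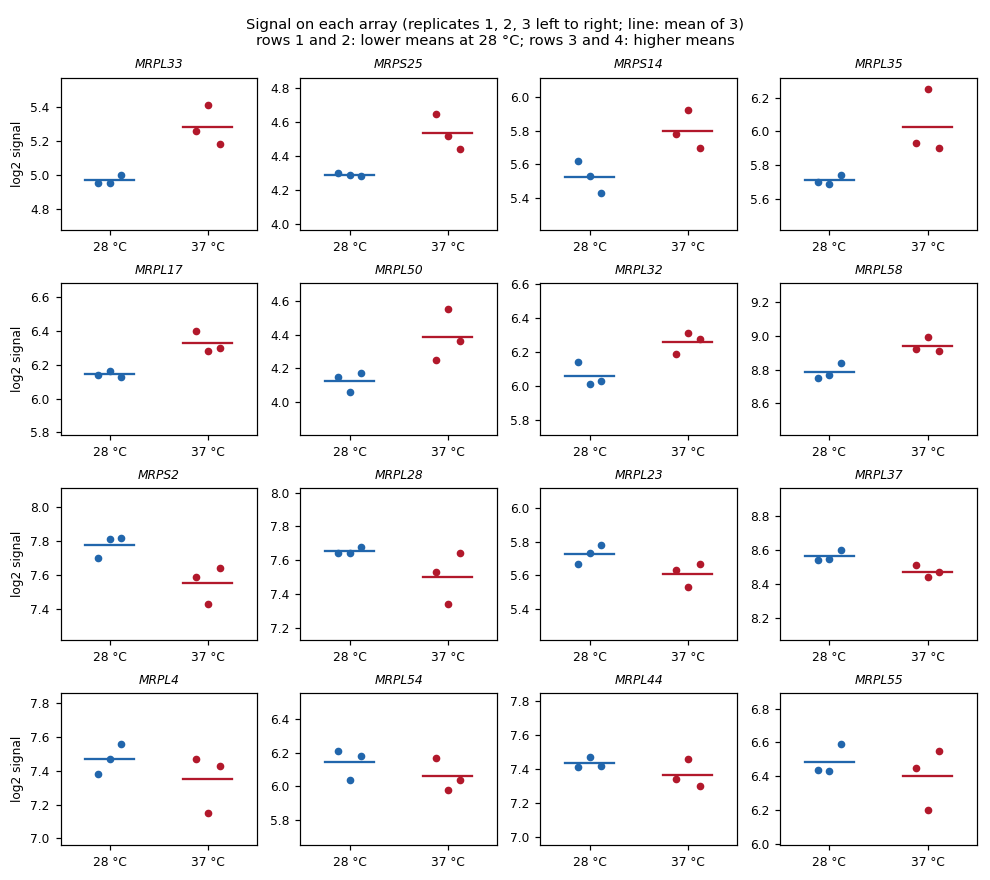
Log2 signal on each of the 6 arrays, with the group mean as a line, for the 8 members of lower mean at 28 °C and the 8 of higher mean with the lowest p-values. Every panel spans the same height in log2 units, and the genes of the upper 2 rows differ by -0.15 to -0.32 between groups that do not overlap, while replicate 2 at 37 °C stands highest or lowest in many panels.

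In the small subunit, MRPS25 and MRPS14 had the lowest p-values. MRPS25, specific to mitochondria, had 4.30, 4.29 and 4.28 at 28 °C, against 4.65, 4.52 and 4.44 at 37 °C. MRPS14 had 5.62, 5.53 and 5.43 at 28 °C, against 5.78, 5.92 and 5.70 at 37 °C. Both genes were apart between the groups, by -0.25 (adjusted p = 0.232) and -0.27 (adjusted p = 0.257). Both are among the genes in which variants are known to cause mitochondrial disease. MRPS14 had 2 features, and the second gave -0.21 (adjusted p = 0.409).

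MRPS2 was the member with the highest difference and the 1 with a higher signal at an unadjusted p under 0.05. This counterpart of a bacterial protein had 7.70, 7.81 and 7.82 at 28 °C, against 7.59, 7.43 and 7.64 at 37 °C. The groups were apart, and the difference was 0.22 (SE 0.0772, 95% interval 0.05 to 0.40, adjusted p = 0.315).

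The MRPS18 genes are 3 paralogs related to the same bacterial protein and sit at different places of the ribosome. MRPS18C takes the bacterial place, while MRPS18A and MRPS18B hold places of their own and are counted by name among the mitochondria-specific members. MRPS18A, in the large subunit, had 6.27, 6.42 and 6.45 at 28 °C, against 6.48, 6.24 and 6.44 at 37 °C. MRPS18B had 8.29, 8.25 and 8.30 at 28 °C, against 8.26, 8.32 and 8.20 at 37 °C. MRPS18C had 3.63, 3.47 and 3.52 at 28 °C, against 3.64, 3.77 and 3.60 at 37 °C. The groups overlapped in all 3 paralogs, with differences of -0.01, 0.02 and -0.13 (adjusted p = 0.982, 0.922 and 0.564). Without replicate 2 at 37 °C that of MRPS18C was -0.08. MRPS18B had 7 features, of which 6 held identical values and the other gave 0.00.

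The other genes of the family with a known further role or an unusual symbol were also without a call. MRPL12, the stalk protein that recruits elongation factors and has been reported to bind the mitochondrial RNA polymerase, had 7.85, 7.90 and 8.03 at 28 °C, against 7.97, 7.87 and 7.98 at 37 °C. Its groups overlapped and the difference was -0.01 (adjusted p = 0.974). MRPL44, which has the fold of an RNase III enzyme, had 7.41, 7.47 and 7.42 at 28 °C, against 7.34, 7.46 and 7.30 at 37 °C, which also overlapped (0.07, adjusted p = 0.728).

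MRPL45 lies at the tunnel exit and ties the ribosome to the inner membrane. Its signal was 8.09, 8.08 and 7.96 at 28 °C, against 8.17, 8.26 and 8.13 at 37 °C, apart between groups by -0.15 (adjusted p = 0.476). MRPS30 had 4.96, 5.00 and 4.72 at 28 °C, against 5.10, 5.39 and 4.92 at 37 °C, overlapping between groups, with a difference of -0.24 (adjusted p = 0.520) that came to -0.12 without replicate 2 at 37 °C. MRPS36, a former member now named KGD4 and known as a part of the oxoglutarate dehydrogenase complex, had 4.81, 4.75 and 4.63 at 28 °C, against 4.79, 4.75 and 4.86 at 37 °C. Those groups overlapped, with a difference of -0.07 (adjusted p = 0.754).

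The remaining members without overlap between the groups all had lower signals at 28 °C, and they are named here after their values were seen. MRPL39, which resembles a threonyl-tRNA synthetase, had 6.83, 6.88 and 6.88 at 28 °C, against 6.90, 7.37 and 7.03 at 37 °C. MRPS9 had 6.27, 6.27 and 6.18 at 28 °C, against 6.38, 6.68 and 6.33 at 37 °C. In both, replicate 2 at 37 °C was well above the other control arrays, and the differences of -0.24 and -0.22 had adjusted p-values of 0.485 and 0.446.

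MRPL51 showed a narrow gap with little spread. It had 8.60, 8.66 and 8.60 at 28 °C, against 8.71, 8.71 and 8.70 at 37 °C, a difference of -0.09 (adjusted p = 0.613). MRPL46, MRPL18, MRPL19, MRPS7, MRPL24 and MRPS5 differed by -0.16 to -0.05, with adjusted p-values of 0.476 to 0.773. At the other end stood MRPS15, with 8.16, 8.20 and 8.14 at 28 °C, against 8.21, 8.15 and 8.16 at 37 °C. Its difference was 0.00 (adjusted p = 0.988), with arrays of both groups interleaved.

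The subunits and the origins of the proteins had similar summaries. The median difference was -0.02 in the large subunit, with 31 of 50 members negative, and -0.06 in the small subunit, with 19 of 24 negative. Members with a bacterial counterpart had a median of -0.05, with 31 of 43 negative, and mitochondria-specific members had -0.03, with 19 of 31 negative. These are descriptions, and no difference between the groups of members was tested. By promoter motif, the median differences of members with and without a match were -0.04 and -0.04 for CCGGAAG (28 genes with it), -0.04 and -0.04 for AANATGGCG (18 genes) and -0.13 and -0.03 for the NRF1 motif (8 genes). The gap for the NRF1 motif was wider than for the others, rests on 8 genes and was not tested.

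The arrays did not vary alike over the family. The median deviation of the members from their own means was -0.027, -0.023 and -0.019 on the arrays at 28 °C, against 0.029, 0.029 and 0.025 at 37 °C. Replicate 2 at 37 °C spread most. The SD of the deviations over members was 0.165 on that array and 0.061 to 0.0989 on the other 5. That array held the highest value of 33 members and the lowest of 19, while over all genes it held the highest in 23.2% and the lowest in 33.0%. Without it the median over the members was -0.05, with 57 of 74 negative, and 0 members passed the test. Replicate 3 at 28 °C held the lowest value of 24 members and the highest of 13, while over all genes it held the lowest in 15.2% and the highest in 24.4%.

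**Figure D3:**
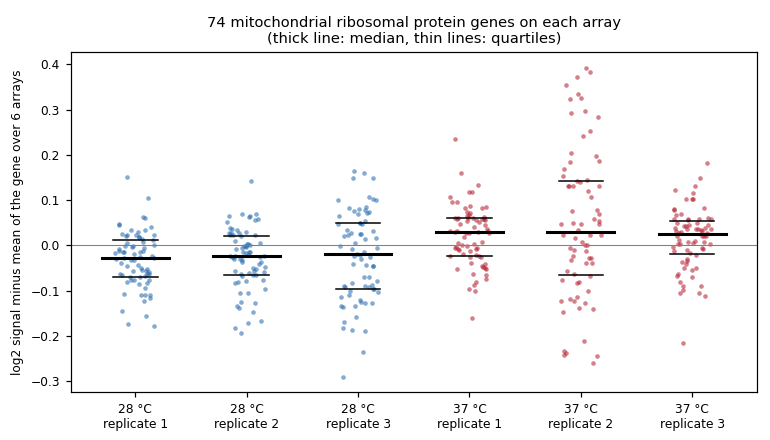
Log2 signal of each of the 74 genes on each array minus the mean of that gene over the 6 arrays, with the median as a thick line and the quartiles as thin lines. The medians lie at -0.027 to -0.019 at 28 °C and at 0.025 to 0.029 at 37 °C, and replicate 2 at 37 °C has the widest spread.

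Facts of the whole array set bear on these values. Array medians were 3.39 to 3.41 at 28 °C and 3.33 to 3.40 at 37 °C. The mean signal of the brighter background features was 6.40, 6.39 and 6.49 at 28 °C, against 6.20, 6.10 and 6.47 at 37 °C. With that mean as a covariate, the members' median was -0.05 and 0 members passed. At an unadjusted p under 0.05 in limma, the covariate left 2 members, beside 9.69% of all features. Without the covariate there were 9 members, beside 11.5% of all features. Single differences moved in both directions, as for MRPS30 from -0.24 to -0.02 and MRPL44 from 0.07 to 0.13. The 23 background features had mean signals of 1.76 to 10.9 with a median of 2.55, and all 74 members, at 3.60 to 9.20, lay under the brightest of them. Of the cardiomyocyte markers, 11 of 12 were measured and 0 passed the test. Their mean signals ran from 2.06 to 9.14 with a median of 4.41. The top was NPPB alone, and PLN and RYR2 lay below the background median. Fibroblast markers, 5 of 6 measured, had mean signals of 7.18 to 11 with a median of 8.17. The 5 leukocyte markers had 2.19 to 8.55 with a median of 3.87, and CD68 alone made the top. Neither list held a gene that passed. The median difference was 0.09 for cardiomyocyte markers, 0.05 for fibroblast markers and 0.09 for leukocyte markers, and their part in the results was not tested.

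The rest of the machinery of mitochondrial translation was set beside the family. Of the 30 measured genes for assembly of the mitochondrial ribosome, 1 fell and 0 rose, beside 0.591% and 0.227% of all features. Among genes in the members' signal range these shares were 1.15% and 0.631%. The gene that fell was MTERF3, which binds mitochondrial nucleic acid and is known from mice to hold back mitochondrial transcription and to be needed for making the ribosome. Its log2 signal was 4.63, 4.59 and 4.42 at 28 °C, against 5.57, 5.55 and 5.50 at 37 °C. The groups were widely apart, and the difference was -0.99 (SE 0.0746, 95% interval -1.16 to -0.82, adjusted p = 0.00255), which is a signal ratio of 0.503. This call held when any 1 array was left out, with adjusted p-values of 0.0105 to 0.0294. It also held in the random variance model (adjusted p = 0.00212), which the methods name for filtering lncRNAs. The call was lost in the methods' t-test (adjusted p = 0.126), which called 0 of all 70523 features. Over the 30 assembly genes the median was -0.06 and 21 were negative, beside 40.4% of all features and 43.6% of genes in that signal range. The list was not tested.

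The 14 measured factors of mitochondrial translation had a median of -0.15, and 0 passed, beside 0.818% of all features. Of the 14, 13 were negative, beside 40.4% of all features. At an unadjusted p under 0.05 in limma 5 were lower and 0 higher, beside 6.08% and 5.41% of all features. Among genes in the members' signal range these shares were 13.1% and 6.87%. In 9 of the 14 the groups were apart and lower, beside 8.49% of all features and 18.8% of those genes. The list was not tested. Besides factors that start, extend, end or rescue protein synthesis, the list held LRPPRC and SLIRP, which keep mitochondrial mRNA stable, the membrane insertase OXA1L, the activator TACO1 and the formyltransferase MTFMT. MTRFR, a factor that rescues stalled mitochondrial ribosomes, came closest. It had 5.09, 5.35 and 5.22 at 28 °C, against 5.64, 5.62 and 5.74 at 37 °C. The groups were apart by -0.44 (SE 0.0818, adjusted p = 0.063), and the adjusted p was 0.0449 after centring, 0.0376 with features below the median signal left out and 0.0437 with array weights. It was 0.282 in the methods' t-test, 0.154 with the background covariate, 0.101 with a replicate block and 0.0836 to 0.217 with 1 array left out. MTIF3, the initiation factor, had 5.01, 5.10 and 5.07 at 28 °C, against 5.22, 5.39 and 5.23 at 37 °C, a difference of -0.22 (adjusted p = 0.290).

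Among 5 genes of mitochondrial transcription 0 passed, and the median was 0.01. TEFM, the elongation factor, had 3.47, 3.55 and 3.52 at 28 °C, against 3.91, 4.21 and 3.78 at 37 °C. POLRMT, the RNA polymerase, had 6.72, 6.78 and 6.77 at 28 °C, against 6.59, 6.49 and 6.64 at 37 °C. The groups were apart in both genes and in opposite directions, by -0.45 (adjusted p = 0.145) for TEFM and by 0.18 (adjusted p = 0.351) for POLRMT. The adjusted p of TEFM was 0.0489 with array weights, 0.419 in the methods' t-test and 0.0592 to 0.373 with 1 array left out, and with the background covariate its difference was -0.29 (adjusted p = 0.400).

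Proteins of the mitochondrial ribosome that carry other symbols were measured for 4 of 5 genes, and 0 passed. All 4 differences were at or below 0, with a median of -0.14. PTCD3 of the small subunit had 6.09, 6.09 and 6.05 at 28 °C, against 6.29, 6.48 and 6.22 at 37 °C. CHCHD1, also of the small subunit, had 5.59, 5.72 and 5.73 at 28 °C, against 5.73, 5.94 and 5.97 at 37 °C. Neither gene passed, at -0.25 (adjusted p = 0.279) and -0.20 (adjusted p = 0.423).

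The proteins of the cytosolic ribosome are the family most like this one. Its genes were taken by symbol. The list holds paralogs such as RPL10L and RPL3L and lacks genes such as RPSA and RPLP0, which had no feature of their own. Of the 55 measured genes 0 passed, the median was -0.02 and 35 were negative, with a range of -0.13 to 0.22. The upper end was RPL10L alone, whose mean signal of 2.67 lay near the background median and whose difference ranged from 0.145 to 0.352 with 1 array left out. At an unadjusted p under 0.05 in limma the cytosolic family counted 0 genes and the mitochondrial family 9 of 74, beside 11.5% of all features. These counts depended on the test. In the methods' t-test they were 5 of 55 and 12 of 74, beside 10.2% of all features. The cytosolic genes also had a higher median signal, 8.12 against 6.73. The difference between the families was not tested. The genes with the lowest p were RPL31 (-0.12, adjusted p = 0.515) and RPL10L (0.22, adjusted p = 0.522).

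**Figure D4:**
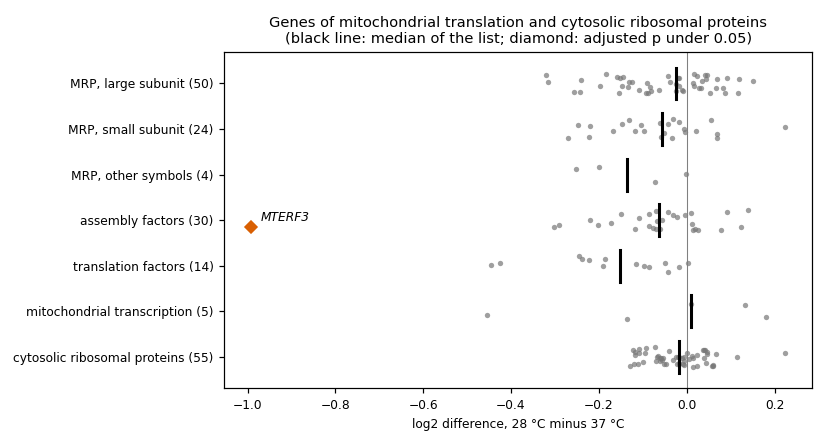
Difference in log2 signal, 28 °C minus 37 °C, of each gene in 7 lists, with the list median as a black line and the number of genes in brackets. MTERF3, at -0.99, is the 1 gene with an adjusted p under 0.05, and the list medians lie between -0.15 and 0.01.

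Many genes for mitochondrial proteins share a promoter region with a gene on the opposite strand. Such a head-to-head neighbour, with a start within 1000 bases upstream, was sought for the 66 members with a matched promoter. It was annotated for 24 members and measured for 17 of them. MRPS11 and MRPL46 are each other's neighbour, 320 bases apart, and count from both sides. The 17 neighbours had a median difference of -0.13, with 12 negative, and 13 of 17 pairs had the same sign. Members and neighbours were both mostly negative, so many pairs would share a sign without any link, and the agreement was not tested. Members and neighbours also share their arrays, so these pairs are not independent.

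The neighbour that passed was PPP1R10, which encodes a nuclear subunit of protein phosphatase 1 and starts 597 bases from MRPS18B. PPP1R10 fell to 7.19, 7.31 and 7.27 at 28 °C, against 7.74, 7.67 and 7.60 at 37 °C. The groups were apart by -0.41 (SE 0.0683, 95% interval -0.57 to -0.25, adjusted p = 0.0444), while MRPS18B differed by 0.02. The call of PPP1R10 was lost without any 1 array other than replicate 3 at 37 °C, with adjusted p-values up to 0.182, and after quantile scaling (0.0507), in the methods' t-test (0.191) and with the brighter background as a covariate (0.169).

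Other pairs ran closer together. ZNF189, a zinc finger gene 233 bases from MRPL50, differed by -0.35 (adjusted p = 0.0649), beside -0.26 for MRPL50. EME1, a DNA repair gene 45 bases from MRPL27, differed by -0.31 (adjusted p = 0.0809), beside -0.08 for MRPL27. PIERCE1, 96 bases from MRPS2, differed by 0.19 (adjusted p = 0.485), beside 0.22 for MRPS2. FAU, which encodes a cytosolic ribosomal protein and starts 49 bases from MRPL49, differed by 0.06, beside 0.04 for MRPL49. SARS2, the mitochondrial seryl-tRNA synthetase 181 bases from MRPS12, had a difference of 0.14, opposite in sign to the -0.03 of MRPS12.

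**Figure D5:**
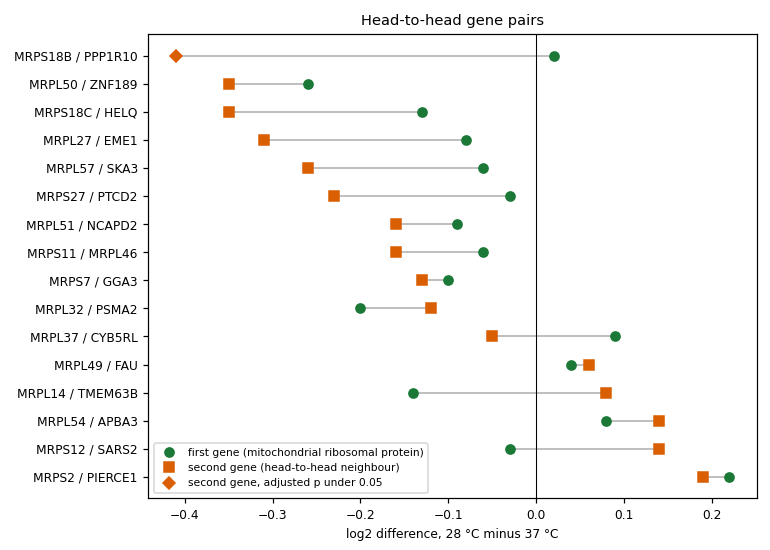
Difference in log2 signal, 28 °C minus 37 °C, of the first gene (circle) and of its head-to-head neighbour (square or, for an adjusted p under 0.05, diamond) in 16 pairs. PPP1R10 at -0.41 is furthest from its partner MRPS18B at 0.02.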

How the data were processed

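Total RNA of AC16 cells, 3 samples at 28 °C and 3 at 37 °C for 6 h, was measured on 1 array each. RMA, by which the authors obtained the log2 signals, subtracts background, brings the arrays to a common scale and joins the probes of a feature, so that a shift shared by all genes would not show. The sources used here do not give its version. No further scaling was applied. Of 70523 features, 23781 had 1 gene symbol in the platform table, 1543 several and 45199 none, and 23777 of the first were found in RefSeq. Groups were compared by lmFit and eBayes (limma 3.58.1, R 4.3.3) without covariates, Benjamini-Hochberg adjustment over all features and a threshold of 0.05. The random variance model, named in the methods for filtering lncRNAs, and the methods' t-test, an unpaired Student's t-test, were run as alternatives. Other scalings, filters, array weights, a background covariate and the removal of each array were run as well. The fit was tested on simulated data.

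Named members were the 8 with the lowest p in each direction, the MRPS18 paralogs, MRPS30, MRPS36, MRPL12, MRPL44, MRPL45, those with several features and those whose neighbour passed the threshold. In each related list, genes past the threshold were named, or else the 2 with the lowest p. Neighbours named beside PPP1R10, and the marker genes, were chosen after their values were seen. Members and lists were chosen with earlier results of these data known. Subunit and origin came from general knowledge of the ribosome. AURKAIP1, MTG2, PTCD1, TUFM, GFM2, TNNT2, COL3A1 and the mitochondrially encoded genes had no feature of their own and were not analysed here.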

Additional observations from a re-analysis of the deposited data

How the results depend on the processing

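With 3 arrays a group, the median standard error of a member was 0.073 on the log2 scale, and no depth can be given for arrays. In 0 of the alternatives run did a member pass the threshold. Over 22 named members and 352 values, the lowest adjusted p was 0.0508, for MRPL33 with array weights. The count of features called was 577, and it was 877 with features below the median signal left out, 0 in the methods' t-test (7187 at an unadjusted p under 0.05), 1486 with array weights, 171 with the brighter background as a covariate and 172 (without replicate 2 at 28 °C) to 1013 (without replicate 3 at 37 °C) with 1 array left out. The members' median of -0.0403 was -0.0175 after quantile scaling (43 negative), -0.0767 after centring (58 negative) and -0.0504 with the background covariate, and -0.0509 to -0.0263 with 1 array left out. MRPS18A and MRPL12 turned positive after quantile scaling (0.0158 and 0.0352), MRPS18B turned negative after centring (-0.0155) and MRPL55 with the background covariate (-0.0672). With 1 array left out, MRPS18A ranged from -0.0805 to 0.0452, MRPL12 from -0.0622 to 0.0301, MRPL55 from -0.0118 to 0.162 and MRPS18B from -0.00696 to 0.0497. Calls in translation factors numbered 1 after centring, with the filter and with array weights. Assembly factors had 0 in the methods' t-test and 2 with array weights, and transcription had 1 with array weights. The cause of these changes was not tested. Same-numbered arrays deviated with correlations of -0.0817, 0.114 and 0.215, and differently numbered arrays with correlations of -0.25 to 0.131. With 3 arrays a group, these values cannot decide whether the replicate numbers pair the samples. With the replicate number as a block 426 features and 0 members were called, and PPP1R10 lost its call (adjusted p = 0.0996). The alternatives for related lists and neighbours were chosen after seeing the data.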
